A study of Mus musculus with 12 samples.

Results

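The genes described here encode the pore-forming subunits of the AMPA-type glutamate receptor (Gria1, Gria2, Gria3 and Gria4) and 6 of its auxiliary proteins (Cacng2, Cacng3, Cacng8, Cnih2, Cnih3 and Shisa9). They were taken by symbol from a named list and not by their values, and they make up 10 of 24209 genes and 22 of the 32850 RefSeq transcript entries on which reads were counted. RNA from entire hippocampi of 12 male C57BL/6 mice was sequenced as 50 bp single end reads, in 2 experiments of 6 mice. All mice received bilateral hippocampal injections of an AAV5 vector at an age of 10 weeks, and tissue was taken 10 weeks later. In the miR-9 experiment 3 GFP-miR-9sp mice were compared with 3 GFP Ctrl mice, and in the miR-34 experiment 3 GFP-miR-34sp mice with a separate set of 3 GFP Ctrl mice. A sponge vector carries GFP followed by 8 imperfect binding sites for a miRNA family, which occupy that miRNA in the cell, and the GFP Ctrl vector carries GFP without such sites. Both are driven by the human synapsin promoter, so the sponge is made in neurons, whereas the RNA came from the whole tissue including its glia. The set of GFP Ctrl mice in the miR-9 experiment was assigned to it because the labels give the other set to the miR-34 experiment.

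AMPA receptors are tetramers of the GluA1 to GluA4 subunits and carry most of the fast excitatory transmission in the brain. The Gria2 subunit, GluA2, makes the channel nearly impermeable to calcium once its mRNA has been edited. Transmembrane AMPA receptor regulatory proteins (TARPs, encoded by the Cacng genes), cornichons (the Cnih genes) and Shisa9 bind the receptor and alter its trafficking to the membrane, its gating and its desensitization, and many hippocampal pyramidal cells rely on TARP γ-8, the product of Cacng8.

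The sequences that define the comparison are the seeds of the sponged miRNAs, which pair with target mRNAs. They are given from RefSeq (GRCm38.p6), 5′ to 3′, with the seed, bases 2 to 8, in capitals.
miR-9-5p: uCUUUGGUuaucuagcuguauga
miR-34a-5p: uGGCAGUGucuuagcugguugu
miR-34b-5p: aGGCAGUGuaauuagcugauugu
miR-34c-5p is the other member of the miR-34 family. miR-34a and miR-34b share their seed. The 7 bases that pair with it, CACTGCC, and those that pair with the miR-9 seed, ACCAAAG, were searched on the sense strand of the longest annotated 3′ UTR of each gene (GENCODE M1, genome build NCBIM37, the same build as mm9). In that annotation the pore subunit genes lie at chr11:56824889-57143746 (Gria1), chr3:80488858-80606713 (Gria2), chrX:38754031-39031778 (Gria3) and chr9:4417899-4796234 (Gria4). The auxiliary genes lie at chr15:77822178-77950458 (Cacng2), chr7:129815258-129912905 (Cacng3), chr7:3394567-3415366 (Cacng8), chr19:5092871-5098418 (Cnih2), chr1:183282759-183390772 (Cnih3) and chr16:11984674-12267896 (Shisa9). Of the 10 genes, 8 have a 3′ UTR in this annotation. Cacng8 and Shisa9 do not. None of the 8 holds ACCAAAG, which 11.4% of 19913 genes hold. Cacng2 holds CACTGCC once, and the other 7 do not, where 13.98% of all genes hold it. Long UTRs hold more matches. Among genes whose 3′ UTR is within a factor of 0.8 in length, 33.9% hold CACTGCC for Cacng2, 34.1% for Gria2, 28.01% for Gria1, 27.8% for Gria3, 24.7% for Gria4, 16.3% for Cnih3, 7.43% for Cnih2 and 6.65% for Cacng3. The shares that hold ACCAAAG in the same classes ranged from 5.39% for Cacng3 to 31.1% for Gria2. The Cacng2 match is followed by an A and so is an 8mer match. It starts at base 687 of a 3′ UTR of 3401 bases, at chr15:77824878-77824900 with its flanks (minus strand), and is shown because it is the single match in the set, with the 8mer in capitals.
Cacng2 3′ UTR: gcaatggtCACTGCCAagcccct
The Cacng2 entry on which reads were counted, NM_007583, is 2887 bases long and thus shorter than that UTR, so the site may lie outside the counted sequence. A match of letters is a description and not evidence of binding, and other kinds of site were not searched.

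Transcripts of Gria2 and Gria4 use one of a pair of exons, called flip and flop, which set how fast the channel desensitizes. The pair was read for these 2 genes only, and each of them also has a shorter entry. The rule by which reads shared by several entries of a gene were counted is not given in the sources used here. The exons are shown because, where shared reads are left out, short stretches such as these decide which reads a Gria entry can receive. In NCBIM37 the Gria2 flop exon lies at chr3:80495242-80495356 and the flip exon at chr3:80494326-80494440, both on the minus strand. Each has 115 bases, of which 36 differ (68.7% identity), and the differing bases are in capitals.
Gria2 flop: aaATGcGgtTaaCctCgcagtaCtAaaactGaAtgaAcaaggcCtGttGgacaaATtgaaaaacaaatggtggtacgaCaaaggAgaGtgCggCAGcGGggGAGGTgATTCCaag
Gria2 flip: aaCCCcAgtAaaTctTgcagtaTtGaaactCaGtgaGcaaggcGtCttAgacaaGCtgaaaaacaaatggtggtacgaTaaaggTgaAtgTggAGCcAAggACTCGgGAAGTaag
The GENCODE transcripts Gria2-201 (flop) and Gria2-202 (flip) are both 6841 bases long. The RefSeq entries NM_001083806 and NM_013540 have the same length, and the deposited files do not say which of them carries which exon. The Gria4 pair, at chr9:4432773-4432887 for flop and chr9:4427030-4427144 for flip, differs at 31 of 115 bases.

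The counted reads therefore give an uneven view of the family. Between 17279620 and 24428477 reads were counted in each mouse of the miR-9 experiment, and between 11029604 and 16934133 in each of the miR-34 experiment. Cacng2, Cacng3, Cacng8 and Cnih2 have 1 entry each and held 21708, 17251, 37439 and 101307 reads over the 12 mice. Gria1 has 3 entries, of which NM_008165 held 6238 of 6277 reads, NM_001252403 held 0 to 7 reads per mouse and NM_001113325 held none. Gria2 has 3 entries with 18146 reads, and Gria4 has 3 with 3068 reads. The 4 entries of Gria3 (NM_001281929, NM_001290451, NM_016886 and NR_104053) held 0 reads in all 12 mice. Of the 3 Cnih3 entries, NM_028408 held 0 to 3 reads per mouse and the others (NM_001160211, NM_001160212) none, and of the 2 Shisa9 entries, NM_028277 held 1 to 6 and NM_001174086 none. Over all genes the number of reads was also lower in genes with more entries. Genes with 1 entry held a median of 526 reads over the 12 mice, those with 2 entries 43 and those with 3 or more 23. Among pan-neuronal genes Snap25 was at 162 to 219 CPM (counts per 1000000 reads, scaled by TMM library sizes over the 12 mice) and Stmn2 at 409.97 to 492 CPM, while Map2 was at 1.34 to 2.20 CPM and Rbfox3 at 0.00 to 0.23 CPM. A count of 0 for Gria3 is thus no measure of its mRNA. As a limit on the counted reads alone it allows up to 3 reads, or 0.123 to 0.272 CPM of raw reads depending on the mouse, which covers counting error only. Gria3, Cnih3 and Shisa9 were not tested, and 7 of the 10 genes, or 11 of the 22 entries, passed the limit of a mean scaled read number over 10.

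Per kilobase of entry, the 4 auxiliary genes with a single entry can be set beside each other as levels of the counted entries. Only the Cnih2 entry has the length of a GENCODE coding transcript, and the Cacng2 entry is shorter than the annotated 3′ UTR of its gene. Reads on transcript sequence outside an entry are not counted, so the order of the mRNAs themselves may differ. Cnih2, a cornichon that slows deactivation of the receptor, was at 348.9 to 481 CPM per kb. Cacng8 was at 124 to 155, Cacng3 (TARP γ-3) at 41.1 to 67.3 and Cacng2 (stargazin) at 33.6 to 44.8 CPM per kb over the 12 mice. Cnih2 lay above 99.5% and Cacng8 above 97.1% of the 15996 genes with 1 entry and a read, and Cacng3 and Cacng2 above 90.9% and 86.5%. The ranges of Cnih2 and Cacng8 did not overlap with those of any other of the 4 genes. Those of Cacng3 and Cacng2 did not overlap in the miR-9 experiment, where the means over 6 mice were 62.3 and 35.5 CPM per kb. They overlapped in the miR-34 experiment, where the means were 46.9 and 40.8 CPM per kb. Both genes were read in the same mice, and within each of the 12 mice the Cacng3 value was above the Cacng2 value. The levels of the Gria genes cannot be placed in this order, because their counts depend on how reads shared by their entries were treated.

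**Figure D1:**
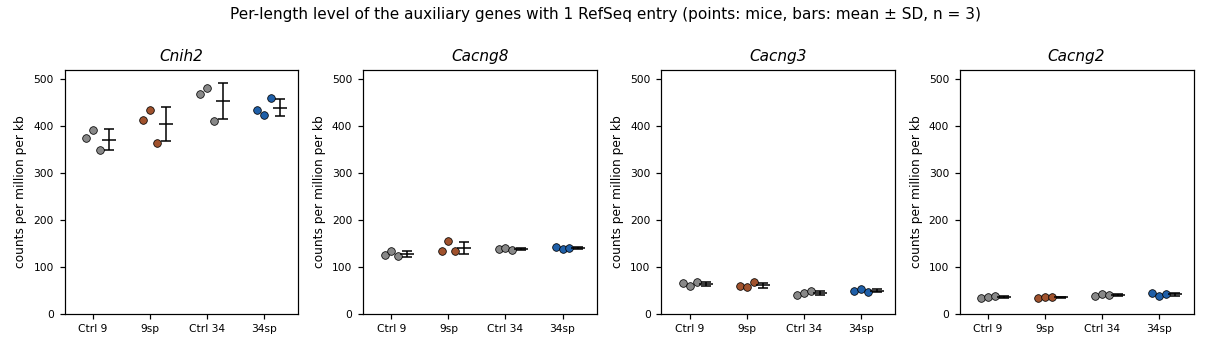
Level of the 4 auxiliary genes with a single RefSeq entry, in CPM per kilobase of entry (y axis, the same scale in each panel). The mice are GFP Ctrl and sponge mice of the miR-9 (Ctrl 9, 9sp) and miR-34 (Ctrl 34, 34sp) experiments. Points are mice and bars the mean ± SD of 3 mice; Cnih2 (348.9 to 481) lay above Cacng8 (124 to 155), and both above Cacng3 and Cacng2 in every mouse.

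After GFP-miR-34sp, Gria2 was the pore subunit with the clearest difference. It was at 73.6, 80.0 and 75.7 CPM in the GFP Ctrl mice (10, 4 and 8) and at 87.0, 83.5 and 86.8 CPM in the GFP-miR-34sp mice (13, 18 and 3). All 3 sponge mice were above all 3 GFP Ctrl mice, and the means were 76.4 ± 3.30 and 85.8 ± 1.93 CPM (SD, n = 3 each). The log2 fold change was 0.17 with an SE of 0.05, and it did not pass the test, with an adjusted p of 0.490 in edgeR's quasi-likelihood test with Benjamini-Hochberg adjustment over 12492 genes and an unadjusted p of 0.00470. Within an experiment each library is labelled with its own number and taken as 1 animal, so the p-values rest on the spread between mice. In whole tissue, more cells of a type and more RNA per cell cannot be told apart.

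Gria4, whose GluA4 subunit is known mainly from interneurons and from the young hippocampus, was at 13.5, 12.9 and 12.6 CPM in the GFP Ctrl mice and at 15.1, 14.8 and 14.4 CPM in the GFP-miR-34sp mice. Here too the groups did not overlap. The log2 fold change was 0.18 with an SE of 0.09, with an edgeR adjusted p of 0.8002 and an unadjusted p of 0.0655. Gria1, the subunit that is inserted into synapses during potentiation, was at 26.8, 27.4 and 27.4 CPM in the GFP Ctrl mice and at 27.1, 30.4 and 28.9 CPM in the GFP-miR-34sp mice. These groups overlapped, and the log2 fold change was 0.08 with an SE of 0.07 and an edgeR adjusted p of 0.917.

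The auxiliary genes overlapped between GFP Ctrl and GFP-miR-34sp. Cacng3 was at 62.7, 68.2 and 73.7 CPM in the GFP Ctrl mice and at 75.1, 79.2 and 70.4 CPM in the sponge mice, a log2 fold change of 0.14 with an SE of 0.07 (edgeR adjusted p = 0.797). Cacng2, the gene with the miR-34 8mer, was at 107, 119.9 and 119 CPM in the GFP Ctrl mice and at 129, 109 and 123 CPM in the sponge mice. The highest and the second lowest of the 6 values were thus both in sponge mice, and the log2 fold change was 0.07 with an SE of 0.06 (edgeR adjusted p = 0.917). Cacng8 was at 191, 193 and 187 CPM and at 197, 191 and 192 CPM, with a log2 fold change of 0.03 and an SE of 0.04, the smallest error among the 7 genes in this comparison (edgeR adjusted p = 0.945). Cnih2 was at 579, 595 and 508 CPM in the GFP Ctrl mice and at 537, 524 and 569 CPM in the sponge mice. All 3 sponge values fell within the range of the GFP Ctrl mice, and the log2 fold change was −0.05 with an SE of 0.06 (edgeR adjusted p = 0.942).

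In this experiment 0 of the 7 genes had an adjusted p under 0.05, where 0.064% of all genes tested did by edgeR. At an unadjusted p under 0.05 there was 1, Gria2, where 6.43% of all genes tested were called, and by DESeq2 there was also 1. The groups did not overlap in 2, Gria2 and Gria4, where 11.5% of all genes did not overlap. The median log2 fold change of the 7 genes was 0.08, and that of all genes was 0.00. With 7 genes, nothing particular to the set is read from these counts.

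Without any one of the 6 mice the Gria2 log2 fold change lay between 0.14 and 0.20 with an unadjusted p between 0.00303 and 0.0227. The number of the 7 genes at an unadjusted p under 0.05 was 3 without GFP Ctrl mouse 8 (Gria2, Cacng3 and Cnih2), 2 without sponge mouse 18 (Gria2 and Cacng2) and 2 without sponge mouse 3 (Gria2 and Cacng3).

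**Figure D2:**
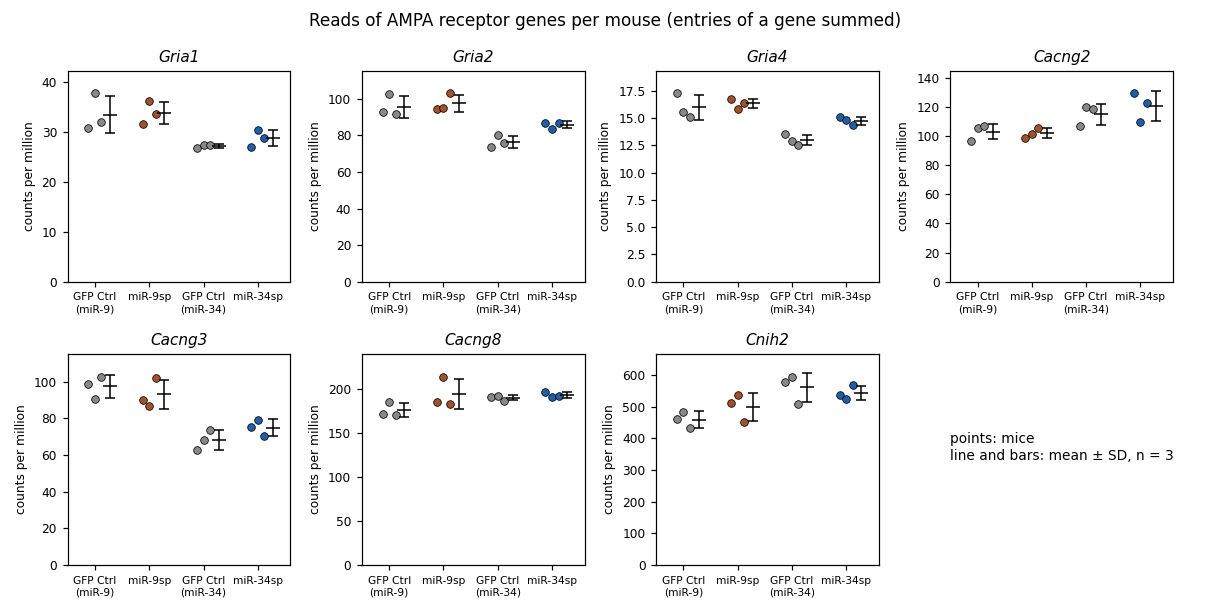
Reads of the 7 tested genes in CPM (y axis, from 0, a scale of its own in each panel) for GFP Ctrl and sponge mice of the miR-9 and miR-34 experiments. Points are mice and bars the mean ± SD of 3 mice; in Gria2 and Gria4 the GFP-miR-34sp mice lay above their GFP Ctrl mice, and in no panel did GFP-miR-9sp mice stand apart from theirs.

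The Gria2 difference after GFP-miR-34sp was unequal among its entries. NM_001039195, an entry of 3491 bases, was at 23.02, 24.4 and 21.3 CPM in the GFP Ctrl mice and at 28.5, 27.8 and 28.9 CPM in the sponge mice. The groups were apart, with a log2 fold change of 0.31 and an SE of 0.07, an unadjusted p of 0.00117 and an edgeR adjusted p of 0.288 over 12787 entries. The entries of 6841 bases gave smaller values. NM_001083806 was at 21.7, 22.4 and 20.3 CPM against 22.9, 22.8 and 22.8 CPM, a log2 fold change of 0.09 with an SE of 0.07. NM_013540 was at 28.8, 33.3 and 34.03 CPM against 35.6, 33.0 and 35.0 CPM, a log2 fold change of 0.11 with an SE of 0.08, and its groups overlapped.

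As a share of the Gria2 reads, NM_001039195 took 31.3%, 30.4% and 28.1% in the GFP Ctrl mice and 32.8%, 33.3% and 33.4% in the GFP-miR-34sp mice. The means were 30.0% ± 1.63 and 33.1% ± 0.31 (SD, n = 3 each), without overlap. Among 796 entry shares in genes with several entries, 8.79% did not overlap between these groups.

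The Gria4 entries were less deeply covered. NM_019691 held 22 to 61 reads per mouse, or 2.77, 2.32 and 1.90 CPM in the GFP Ctrl mice and 3.69, 3.52 and 2.95 CPM in the GFP-miR-34sp mice, with a log2 fold change of 0.53 and an SE of 0.20 (unadjusted p = 0.0242, edgeR adjusted p = 0.702). Its groups did not overlap. NM_001113181, which has the length of the GENCODE transcript Gria4-203 (2338 bases, with 1302 coding bases against 2709 in Gria4-201) and held most Gria4 reads, was at 9.07 to 9.52 CPM against 9.67 to 9.99 CPM, a log2 fold change of 0.09 with an SE of 0.10. NM_001113180, with 13 to 23 reads per mouse in this experiment, overlapped between the groups (log2 fold change 0.09 with an SE of 0.26). The main Gria1 entry, NM_008165, followed the gene sum with a log2 fold change of 0.07 and an SE of 0.07.

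Of the 11 entries tested after GFP-miR-34sp, 0 had an edgeR adjusted p under 0.05 (0.0313% of all entries tested), and 2, NM_001039195 and NM_019691, had an unadjusted p under 0.05, where 6.37% of all entries did. The call of NM_019691 at that limit was lost in DESeq2, which counted 1 entry. It was also lost in edgeR without GFP Ctrl mouse 4, GFP Ctrl mouse 8, sponge mouse 13 or sponge mouse 18, with an unadjusted p of 0.0532 to 0.0937 and log2 fold changes of 0.41 to 0.52. The groups did not overlap in 4 of the 11, with the sponge mice higher in all 4 (NM_001039195, NM_001083806, NM_001113181 and NM_019691), where 11.4% of all entries did not overlap and 5.69% did so with the sponge mice higher. These 4 are entries of only 2 genes and are not independent of each other.

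**Figure D3:**
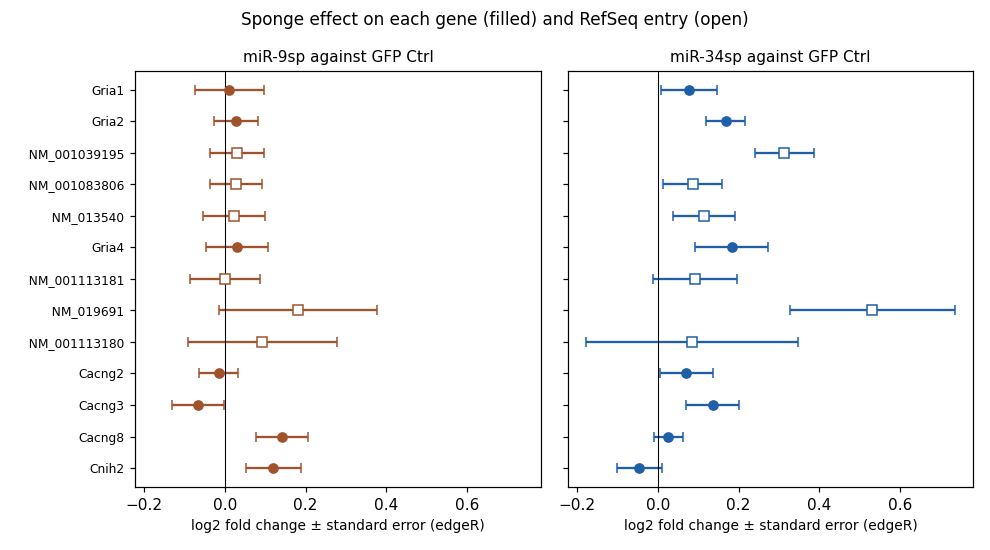
Log2 fold change ± standard error (edgeR) of sponge against GFP Ctrl for the 7 genes (filled circles) and for the entries of Gria2 and Gria4 (open squares), miR-9 experiment left and miR-34 experiment right. The largest values after GFP-miR-34sp were those of the entries NM_019691 (0.53) and NM_001039195 (0.31), and after GFP-miR-9sp the gene sums ranged from −0.07 to 0.14.

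After GFP-miR-9sp the pore subunits differed little from GFP Ctrl. Gria2 was at 92.5, 102 and 91.7 CPM in the GFP Ctrl mice (16, 2 and 8) and at 94.6, 94.9 and 103 CPM in the GFP-miR-9sp mice (17, 23 and 9). The groups overlapped, with a log2 fold change of 0.03 and an SE of 0.05 (edgeR adjusted p = 0.978). Gria1 was at 30.7, 37.7 and 31.9 CPM against 31.5, 36.1 and 33.7 CPM, a log2 fold change of 0.01 with an SE of 0.08 (edgeR adjusted p = 0.995). The highest Gria1 value was that of GFP Ctrl mouse 2, and the sponge values lay within the range of the GFP Ctrl mice. Gria4 was at 17.3, 15.5 and 15.1 CPM against 16.7, 15.9 and 16.4 CPM, a log2 fold change of 0.03 with an SE of 0.08 (edgeR adjusted p = 0.981).

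Among the auxiliary genes, Cacng8 had the largest value after GFP-miR-9sp. It was at 172, 185 and 170.5 CPM in the GFP Ctrl mice and at 186, 214 and 183 CPM in the sponge mice. GFP Ctrl mouse 2 was above sponge mouse 9, so that the groups overlapped, and sponge mouse 23 was the highest of the 6. The log2 fold change was 0.14 with an SE of 0.06, an unadjusted p of 0.0506 and an edgeR adjusted p of 0.970. Without sponge mouse 23 it was 0.07. Cnih2 was at 462, 484 and 432 CPM against 511, 538 and 451 CPM, with a log2 fold change of 0.12 and an SE of 0.07 (edgeR adjusted p = 0.970). Its sponge mouse 9 was below 2 of the GFP Ctrl mice, and its log2 fold change was 0.06 without sponge mouse 23, 0.08 without GFP Ctrl mouse 8 and 0.19 without sponge mouse 9.

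Cacng3 was at 98.7, 90.6 and 103 CPM in the GFP Ctrl mice and at 90.2, 86.7 and 102 CPM in the GFP-miR-9sp mice, a log2 fold change of −0.07 with an SE of 0.06 (edgeR adjusted p = 0.970). Cacng2 was at 96.9, 106 and 107 CPM against 98.5, 102 and 106 CPM, a log2 fold change of −0.02 with an SE of 0.05 (edgeR adjusted p = 0.984). Both overlapped between the groups. Shisa9, which slows recovery of the receptor from desensitization, was below the limit for testing, at 6, 4 and 4 reads in the GFP Ctrl mice and 5, 6 and 6 reads in the sponge mice, and no difference can be read from so few.

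None of the 7 genes had an unadjusted p under 0.05 after GFP-miR-9sp by edgeR, where 4.73% of all genes did, and DESeq2 counted 1, Cacng8. At an adjusted p under 0.05, edgeR called 0 of the 7 and 0% of all 13045 genes, and DESeq2 called 2 genes, none of them among the 7. The groups did not overlap in 0 of the 7, where 10.3% of all genes did not overlap. The median log2 fold change was 0.03 in the 7 genes and 0.00 in all genes. The counts depended on single mice. Without sponge mouse 9, 3 of the 7 genes had an unadjusted p under 0.05 (Cacng8 and Cnih2 higher, Cacng3 lower), and without sponge mouse 17 or GFP Ctrl mouse 2 there was 1, Cacng8. Of the 11 entries, 0 had an unadjusted p under 0.05 by edgeR (4.68% of all entries did), 0 had groups that did not overlap (10.3% of all entries did not), and their log2 fold changes ranged from −0.07 to 0.18. The latter was that of NM_019691, with an SE of 0.19. A fold change that misses the test does not show that the gene was the same in both groups. The SE gives the uncertainty of a fold change, and a difference as small as its SE could not be resolved with these 6 mice. Larger ones can miss the adjusted limit too, as did Gria2 after GFP-miR-34sp (0.17 with an SE of 0.05).

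The difference between the sponge effects, miR-34 minus miR-9, was tested in 1 model of all 12 mice. Its largest values were 0.20 on the log2 scale for Cacng3, with an SE of 0.10 (unadjusted p = 0.0680, edgeR adjusted p = 0.811), and −0.17 for Cnih2, with an SE of 0.10 (edgeR adjusted p = 0.828). For Gria2 it was 0.14 with an SE of 0.07 (unadjusted p = 0.0787, edgeR adjusted p = 0.816), and for Gria4 0.15 with an SE of 0.11. Cacng8 gave −0.12, Cacng2 0.08 and Gria1 0.06. None of the 7 had an unadjusted p under 0.05 in edgeR, where 6.10% of all genes did, and 2, Cacng3 and Gria2, did with scaling by total counts. Without GFP-miR-9sp mouse 9 there were 3 (Cacng3, Cnih2 and Gria2), and without GFP Ctrl mouse 8 of the miR-34 experiment 2 (Cacng3 and Cnih2). The value for Gria2 after GFP-miR-34sp was thus not shown to be particular to that sponge.

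The share of Gria2 in the reads per length of the 4 Gria genes was compared per mouse. It was 62.4% ± 0.70 in GFP Ctrl and 62.6% ± 1.39 in GFP-miR-9sp mice (SD, n = 3 each), a difference of 0.19 percentage points (two-sided exact permutation test, p = 1.00). In the miR-34 experiment it was 60.5% ± 1.05 in GFP Ctrl and 62.0% ± 1.14 in GFP-miR-34sp mice, a difference of 1.49 percentage points (two-sided exact permutation test, p = 0.20). With only the entry of each gene that held the most reads over the 12 mice the difference was 3.96 points (exact permutation p = 0.10). For Gria2 that entry was NM_001039195, the Gria2 entry with the largest difference after GFP-miR-34sp. In every mouse of the miR-34 experiment NM_013540 held more reads, so the 3.96 points are no separate check. With reads not divided by length the difference was 0.82 points (exact permutation p = 0.40). With 3 mice against 3, p = 0.10 is the smallest value this exact permutation test can give. Because the counts depend on the treatment of shared reads and Gria3 was at 0, these shares describe the counted reads and not the makeup of receptors.

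Most of the 7 genes also differed between the experiments. Over the 6 mice of each experiment, Cacng3 was 1.33 times, Gria1 1.20 times, Gria2 1.19 times and Gria4 1.17 times as high in the miR-9 as in the miR-34 experiment, and Cacng2 0.871 times. In these 5 of 7 genes the 6 mice of one experiment did not overlap with the 6 of the other, where 20.5% of 12835 genes did not. Cacng8 and Cnih2 overlapped. The headers of the miR-9 count files contain the word totRNA and the others do not, while poly-A enrichment is described for every library, and the miR-9 libraries were deeper. Library, preparation and mouse set cannot be told apart between the experiments, so no comparison between them is read as biology.

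Entry shares moved with the experiment as well. In the miR-9 mice NM_001039195 took 40.4% to 44.4% of the Gria2 reads, against 28.1% to 33.4% in the miR-34 mice. NM_013540 took 33.7% to 37.9% against 39.1% to 45.0%, and NM_001083806 21.0% to 22.4% against 26.3% to 29.6%. Of the Gria4 reads, NM_001113181 took 77.3% to 81.0% against 66.3% to 75.9%, and NM_019691 9.30% to 13.2% against 15.2% to 24.5%. These 5 of the 6 entries of Gria2 and Gria4 did not overlap between experiments, where 8.29% of 796 entry shares did not. The shares of a gene add up to the whole, so those within Gria2, and those within Gria4, are not independent of each other.
The step between experiments in the NM_001039195 share, from a mean of 31.5% to 42.8%, was larger than the step between GFP Ctrl and GFP-miR-34sp mice within the miR-34 experiment. Within the miR-9 experiment the share was 42.8% ± 0.40 in GFP Ctrl and 42.8% ± 2.12 in GFP-miR-9sp mice. The groups of that experiment overlapped in all 6 entries of Gria2 and Gria4, where 12.7% of 796 entry shares did not overlap.

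**Figure D4:**
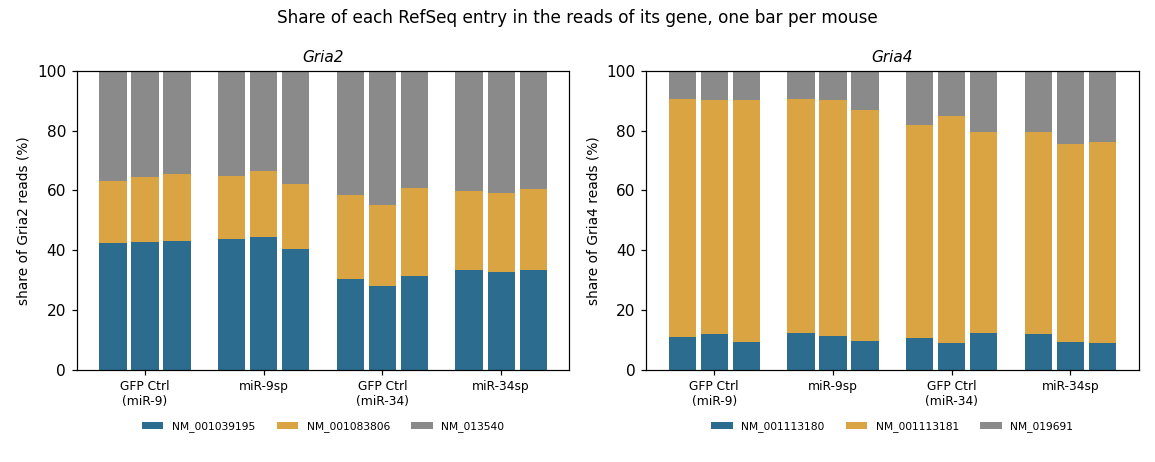
Share of each RefSeq entry in the reads of Gria2 (left) and Gria4 (right), in percent (y axis), with 1 bar per mouse, grouped by condition. The lowest segment of Gria2, NM_001039195, took 28.1% to 33.4% in the 6 mice of the miR-34 experiment and 40.4% to 44.4% in those of the other.

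Proteins that bind, traffic or modify AMPA receptors were taken from a list of 60 further genes, of which 48 were tested in each experiment. After GFP-miR-9sp, 28 of the 48 had a log2 fold change above 0, 4 of them at an unadjusted p under 0.05, and 1 gene was lower at that limit. Of all genes tested, 49.7% had a log2 fold change above 0 and 4.73% an unadjusted p under 0.05. None had an edgeR adjusted p under 0.05. The 4 of smallest p were Gsg1l, Shisa8, Napa and Nsf. Gsg1l, an auxiliary subunit that reduces AMPA receptor currents, was at 59.4, 56.8 and 68.9 CPM in the GFP Ctrl mice and at 73.5, 71.7 and 71.0 CPM in the GFP-miR-9sp mice. The groups did not overlap, and the log2 fold change was 0.23 with an SE of 0.06 (unadjusted p = 0.00598, edgeR adjusted p = 0.970). Shisa8, a relative of Shisa9, was at 3.79, 3.70 and 3.91 CPM against 2.39, 2.79 and 2.94 CPM, a log2 fold change of −0.49 with an SE of 0.14 (unadjusted p = 0.00649, edgeR adjusted p = 0.970). Nsf, the ATPase that binds the GluA2 tail, had a log2 fold change of 0.12 with an SE of 0.05, and Napa, its adaptor α-SNAP, 0.13 with an SE of 0.05, at the same edgeR adjusted p of 0.970.

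After GFP-miR-34sp, 22 of the 48 had a log2 fold change above 0 and 1, Akap5, had an unadjusted p under 0.05, beside 49.7% and 6.43% of all genes tested. Akap5, the anchor that holds kinases and calcineurin near the receptor, was at 202, 191 and 201 CPM in the GFP Ctrl mice and at 211, 222 and 205 CPM in the sponge mice, a log2 fold change of 0.10 with an SE of 0.04 (unadjusted p = 0.0329, edgeR adjusted p = 0.724). None had an edgeR adjusted p under 0.05. The median log2 fold change of the 48 was 0.00 after GFP-miR-34sp and 0.03 after GFP-miR-9sp, beside 0.00 for all genes in both.

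Marker lists of the cells and neighbouring tissues that the samples could hold were read in the same fits. Markers of dentate granule cells, CA1 and CA2/CA3 pyramidal cells, interneurons, astrocytes, oligodendrocytes and microglia were all present, so the samples hold tissue rather than neurons alone. In the miR-34 experiment, where 6.43% of all genes tested had an unadjusted p under 0.05, 11 of 12 tested choroid plexus markers were lower in sponge mice at an unadjusted p under 0.05 and 4 at an edgeR adjusted p under 0.05. Their summed level was 86.5 to 173 CPM in GFP-miR-34sp and 692 to 2511 CPM in GFP Ctrl mice, while Folr1 was at 0 in every mouse. Of the 8 tested markers of striatum, 4 were lower (summed 119 to 137 CPM against 137 to 207 CPM, median log2 fold change −0.33), with Drd1 at 0.00 to 0.12 CPM in all mice. No pan-neuronal or CA1 marker, with 9 tested in each list, had an unadjusted p under 0.05 (median log2 fold change −0.04 and 0.04). Among 13 tested interneuron markers 1 was higher (median −0.01). Of the 10 dentate granule markers, 3 were higher (summed 901 to 1012 CPM against 778 to 972 CPM, median log2 fold change 0.13). Of 11 tested CA2/CA3 markers 3 were lower (summed 2127 to 2245 CPM against 2216 to 2360 CPM, median −0.05). Of 7 tested endothelial markers 1 was lower (summed 333 to 360 CPM against 340 to 392 CPM, median −0.12). Of 10 tested astrocyte markers 1 was lower (median −0.04). No marker of oligodendrocytes, their precursors, microglia or thalamus had an unadjusted p under 0.05. The part of these differences in the Gria2 and Gria4 values after GFP-miR-34sp was not tested.

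In the miR-9 experiment the choroid plexus markers summed to 66.0 to 915 CPM in GFP-miR-9sp and 138 to 761 CPM in GFP Ctrl mice, and 0 of 11 tested had an unadjusted p under 0.05, where 4.73% of all genes did. The 10 dentate granule markers had a median log2 fold change of 0.18 (summed 734 to 993 CPM against 691 to 899.6 CPM, 1 higher at an unadjusted p under 0.05). Pan-neuronal markers summed to 2879 to 2931 CPM in GFP-miR-9sp and 2639.7 to 2769 CPM in GFP Ctrl mice, without overlap, and 2 of 9 tested were higher at that limit (median log2 fold change 0.08). Microglia markers summed to 689 to 719 CPM against 723 to 749 CPM, also without overlap, and 1 of 10 tested was lower (median −0.07). The sums of every other marker list overlapped between the groups, and among all genes tested 10.3% did not overlap. Of 12 CA2/CA3 markers 2 were higher and 1 lower (median 0.05), and of 5 tested thalamus markers 2 were lower (summed 204 to 242 CPM against 206 to 247 CPM, median −0.09). Among 13 tested interneuron markers 1 was higher, and among 7 of oligodendrocyte precursors 1 was lower. The medians were −0.11 for oligodendrocyte and −0.13 for striatum markers, with 0 of 9 and 0 of 8 tested at an unadjusted p under 0.05. None of these had an edgeR adjusted p under 0.05. Their part in the Cacng8 and Cnih2 values was not tested.

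Across the 12 mice, with each gene centred on the mean of its experiment, the genes whose log2 CPM was most like that of Gria2 among 5693 well-covered genes were Srsf6 (Pearson r = 0.900), Dusp11 (r = 0.881) and Fbxo11 (r = 0.855). For Gria4 they were Scaf4 (r = 0.900), Cdan1 (r = 0.883) and Tfam (r = 0.853). For Gria1 they were Ppp3ca, the catalytic subunit of calcineurin (r = 0.862), Plekha2 (r = 0.850) and Mrpl3 (r = 0.841), and Gria3 with 0 reads had none. These are the highest of 5693 values over the same 12 libraries and describe them only. Among the 7 tested genes themselves the 21 pairs ranged from r = −0.856 to r = 0.711 with a median of 0.109, so that the family did not vary as one across mice.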

How the data were processed

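RNA from entire hippocampi was poly-A enriched, per the methods, and sequenced as 50 bp single end reads in 3 mice per group. The authors deposited raw counts of reads for each RefSeq entry. The rule for reads shared by entries of a gene is not given in the sources used here. The other deposited value is the length of an entry in bases. The methods name mm9, whereas the submitters' processing notes list mm10 and STAR; the deposited files hold no coordinates, so those printed come from the NCBIM37 annotation. Symbols were joined to 98.7% of entries through a RefSeq table (GRCm38.p6), and 1.29% of reads lay on unjoined entries.

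Counts of the entries of a gene were summed, and sums and entries were tested with edgeR 4.0.16 (R 4.3.3) by the quasi-likelihood test with TMM scaling, per experiment and two-sided, on features with a mean scaled read number over 10, with Benjamini-Hochberg adjustment. The difference of the sponge effects used all 12 mice. DESeq2 1.42.0, other scalings and filters, 1 fit of all 12 mice and leaving out each mouse were alternatives. The code was tested on simulated data. Totals ranged from 11029604 to 24428477 counts per mouse, so 3 reads are 0.123 to 0.272 CPM. The limit of 3 reads covers counting error only, and PCR copies cannot be told apart. SDs and SEs include the spread between mice. Python 3.11.15 was used for tables (pandas 2.3.3), exact tests (scipy 1.17.1) and figures (matplotlib 3.10.9).

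The text names all 10 genes and their entries, at most 4 associated genes per experiment (those of smallest unadjusted p under 0.05), and for each Gria gene the 3 genes most like it among those with a mean scaled read number over 500. The genes and lists were chosen with earlier results of these data known.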

Additional observations from a re-analysis of the deposited data

How the results depend on the processing

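No member gene or entry had an adjusted p under 0.05 under any alternative. Genes called at that limit after GFP-miR-34sp numbered 8, against 4 with RLE size factors, 4 with total-count scaling, 36 in DESeq2, 81 with every gene of at least 1 read, and 0 over 100 reads or in 1 fit of all 12 mice. Entries numbered 4, against 8 with RLE size factors, 37 in DESeq2, 140 with every entry of at least 1 read, and 0 over 100 reads or in 1 fit. After GFP-miR-9sp 0 became 2 for genes and for entries, in DESeq2 and with every feature of at least 1 read, and for the difference of the effects 0 became 5 and 4. Members at an unadjusted p under 0.05 became 1 after GFP-miR-9sp in DESeq2, with at least 1 read and in 1 fit (entries 1, 2 and 1), and 2 after GFP-miR-34sp with at least 1 read and in 1 fit, against 1. Member entries after GFP-miR-34sp, 2, became 1 in DESeq2 and over 100 reads, where NM_019691 was filtered out, and 3 with at least 1 read, where NM_019430 (Cacng3) was added. For the difference, 0 became 2 with total-count scaling and with at least 1 read. Other causes were not tested.

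Leaving out 1 mouse at a time gave 0 to 1 genes, 0 to 1 entries, 0 to 3 member genes and 0 to 3 member entries after GFP-miR-9sp. After GFP-miR-34sp it gave 0 to 57 genes, 0 to 60 entries, 1 to 3 member genes and 1 to 3 member entries, with 57 and 60 reached without GFP Ctrl mouse 10. For the difference it gave 0 to 1 genes and 0 to 3 members, with 3 without GFP-miR-9sp mouse 9. The Gria2 share differed by −0.51 to 0.88 percentage points in the miR-9 experiment (below 0 without sponge mouse 9 or GFP Ctrl mouse 16) and by 1.11 to 2.15 points in the miR-34 experiment.

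Near-zero log2 fold changes crossed 0. With total-count scaling after GFP-miR-9sp, Gria1 was −0.011, NM_008165 −0.013 and NM_001113181 −0.020, and over 100 reads NM_001113181 was −0.00103. Leaving out 1 mouse after GFP-miR-9sp gave −0.059 to 0.012 for Cacng2, −0.059 to 0.0085 for NM_007583, −0.049 to 0.11 for Gria1, −0.052 to 0.11 for NM_008165, −0.012 to 0.082 for Gria2, −0.0096 to 0.091 for Gria4, −0.024 to 0.084 for NM_001039195, −0.0020 to 0.057 for NM_001083806, −0.050 to 0.076 for NM_001113181 and −0.024 to 0.10 for NM_013540. After GFP-miR-34sp it gave −0.11 to 0.000194 for Cnih2 and −0.044 to 0.24 for NM_001113180, and for the difference −0.032 to 0.12 for Gria1. Gria2 and NM_001039195 after GFP-miR-34sp were above 0 at an unadjusted p under 0.05 under every alternative, with lowest adjusted p of 0.279 and 0.0651 in these fits of edgeR and DESeq2.

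No paired analysis was possible because sponge and GFP Ctrl mice of an experiment share no replicate number. With 3 mice per group and 22 to 61 reads per mouse, entries such as NM_019691 had standard errors of 0.19 to 0.20, which limits what can be resolved.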
